A study of Mus musculus with 6 samples.

Results

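The genes described here code for subunits of the respiratory chain and ATP synthase, in the mitochondrial and in the nuclear genome. They were chosen by symbol in GENCODE M21: mt-Nd, mt-Co, mt-Atp and mt-Cytb genes, and nuclear genes of the Nduf (letters a, b, c, s and v), Sdh (a to d), Uqcr, Cox4 to Cox8 and Atp5 families. The rule found 97 of the 20894 genes in the table, 13 mitochondrially encoded and 84 nuclear. Complex I had 7 mitochondrially encoded and 35 nuclear genes, complex II 4 nuclear, complex III 1 and 8, complex IV 3 and 19, and complex V 2 and 18. Ndufa4, named for complex I, was counted with complex IV, where its product was later found. The symbol rule also takes in Cox7a2l, which acts in supercomplex assembly, and Atp5s, a coupling factor, and it leaves out Cyc1, cytochrome c1 of complex III.

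RNA of mouse liver was sequenced from 3 samples of the IRF3-2D group and 3 of the Ctrl group. All mice carried the Irf3LSL-2D allele, in which a stop cassette keeps an active form of the antiviral transcription factor IRF3 silent until Cre removes it. The IRF3-2D group had received AAV8-TBG-Cre and the Ctrl group AAV8-TBG-GFP, and both groups were given 3 g/kg ethanol by intraperitoneal injection and were sampled 2 h later. The TBG promoter is active in hepatocytes, so Cre was aimed at these cells while RNA came from whole liver. No group had Cre without the allele, and none was without ethanol, so effects of Cre or GFP and of active IRF3 cannot be told apart, nor can a response that needs ethanol be told from one that does not. The labels do not say that the numbered samples came from separate mice, so the p-values rest on sample-to-sample spread that could be partly technical. Strain, sex and age of the mice are not stated in the labels.

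The respiratory chain sits in the inner mitochondrial membrane. Complexes I and II pass electrons from NADH and succinate to ubiquinone, complex III passes them to cytochrome c, complex IV to oxygen, and complex V uses the proton gradient to make ATP. Complex II is wholly nuclear, while the other complexes join mitochondrially encoded core subunits to nuclear ones. The mitochondrial genes are transcribed from each strand as long precursors that are cut into messages, most of them from the heavy-strand promoter and mt-Nd6 from the other strand, whereas each nuclear gene has its own promoter. Liver is rich in mitochondria.

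Depth ranged from 12054096 to 13606973 estimated counts in IRF3-2D libraries and from 13940893 to 14830629 in Ctrl libraries. Levels are CPM, counts scaled to library size, after TMM adjustment, whose factors were 1.12 to 1.23 in IRF3-2D and 0.822 to 0.879 in Ctrl. A gene was called when its p-value from edgeR's quasi-likelihood test, adjusted by Benjamini-Hochberg over the 10802 genes tested, was under 0.05. By this rule 13.1% of all genes tested were lower and 13.2% were higher in IRF3-2D, 26.3% in all. Irf3 itself had 117, 106 and 137 CPM in IRF3-2D libraries, against 42.6, 46.4 and 60.3 CPM in Ctrl libraries, a log2 fold change of 1.27 (SE 0.16, edgeR adjusted p = 0.0015). Libraries with Cre were thus the ones with more Irf3 RNA, as labelled. Hepatocyte markers summed to 98096 to 109356 CPM in IRF3-2D, against 165486 to 225708 CPM in Ctrl. Alb alone averaged 50833 CPM in IRF3-2D and 118676 CPM in Ctrl, so it held a large part of these sums. Of 17 tested, 10 fell, with log2 fold changes of -1.22 for Alb and -1.57 for Cyp3a11. The 3 that rose were Ttr (0.84), Hpx (0.68) and Apoc3 (0.44). Kupffer cell and macrophage markers summed to 1056 to 1461 CPM in IRF3-2D, against 632 to 772 CPM in Ctrl, with 6 of 15 higher and 0 lower (0 also at an unadjusted p under 0.05 by edgeR, DESeq2 or limma-voom), and endothelial markers to 476 to 635 CPM in IRF3-2D, against 716 to 755 CPM in Ctrl, with 5 of 14 lower. Of the calls, 9 of 13 in hepatocyte, 2 of 6 in Kupffer cell (Mpeg1 and C1qb) and 1 of 5 in endothelial markers (Ehd3) held in all 6 fits that leave out a library, and 9, 6 and 0 held with library totals alone. Their part in the results below was not tested, and in bulk liver fewer cells of a type and less RNA per cell cannot be told apart.

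All 13 mitochondrially encoded genes fell in IRF3-2D liver, beside 13.1% of all genes tested. Their log2 fold changes ran from -0.50 for mt-Nd1 to -1.63 for mt-Cytb, 1.42-fold to 3.10-fold lower, with a median of -1.13 beside 0.03 over all genes tested. In each of the 13, every IRF3-2D library was below every Ctrl library, which held for 21.2% of all genes tested. Adjusted p-values by edgeR were 8.56e-05 to 0.00875. Poly-A selected RNA was counted, so these are levels of RNA that came through this selection. Whether each message carried a tail, mt-Nd6 included, was not measured.

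**Figure D1:**
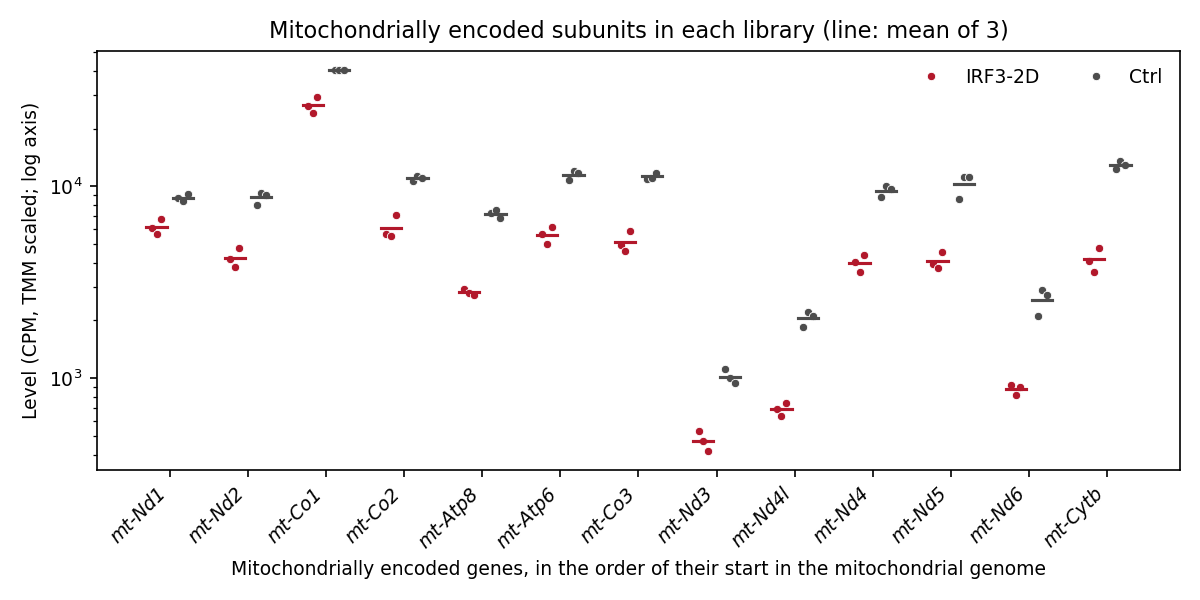
Level in CPM (log axis) of the 13 mitochondrially encoded subunit genes in each of 3 IRF3-2D libraries (red, left) and 3 Ctrl libraries (grey, right), in the order of their start in the mitochondrial genome. Lines are means of 3; for each gene all red points lie below all grey points, most closely for mt-Nd1 and most widely for mt-Cytb.

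In complex I, the 7 mitochondrially encoded genes code for the core of the membrane arm, which pumps protons. mt-Nd1, where the ubiquinone channel opens, had 6074, 5633 and 6788 CPM in IRF3-2D libraries, against 8733, 8352 and 9107 CPM in Ctrl libraries. Its groups were the closest of the 13, with a log2 fold change of -0.50 (SE 0.10, edgeR adjusted p = 0.00875). Without IRF3-2D replicate 1 the log2 fold change was -0.49 and the call was lost (edgeR adjusted p = 0.059). mt-Nd2 averaged 4253 ± 481 CPM in IRF3-2D and 8748 ± 704 CPM in Ctrl (SD, n = 3 each), and its log2 fold change was -1.04. mt-Nd3, mt-Nd4 and mt-Nd5 had log2 fold changes of -1.11, -1.25 and -1.34. mt-Nd5 had 3927, 3743 and 4569 CPM in IRF3-2D libraries, against 8597, 11132 and 11244 CPM in Ctrl libraries, where replicate 1 was the low one. The greatest falls in complex I were those of mt-Nd4l, with 690, 638 and 741 CPM in IRF3-2D libraries against 1837, 2207 and 2110 CPM in Ctrl libraries (log2 fold change -1.57, SE 0.11), and of mt-Nd6.

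mt-Nd6 is the gene of this set that lies on the other strand. It had 916, 819 and 898 CPM in IRF3-2D libraries, against 2098, 2889 and 2705 CPM in Ctrl libraries, and its log2 fold change was -1.55 (SE 0.13, edgeR adjusted p = 0.00038). It thus fell along with the heavy-strand genes. Its count as a ratio to that of mt-Nd5, with which its 3' end overlaps on the opposite strand, was 0.233, 0.219 and 0.197 in IRF3-2D libraries, against 0.244, 0.260 and 0.241 in Ctrl libraries. The kit was strand-specific by the labels, but the strand setting of the counting is not given, so reads of this overlap cannot be placed with certainty.

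mt-Cytb, the sole mitochondrially encoded subunit of complex III, carries the haems that move electrons across the membrane. It had 4091, 3592 and 4792 CPM in IRF3-2D libraries, against 12344, 13489 and 12899 CPM in Ctrl libraries. The groups lay far apart, and the log2 fold change of -1.63 (SE 0.12, edgeR adjusted p = 0.000182) was the greatest fall of any of the 84 subunit genes tested.

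Of the 3 catalytic subunits of complex IV, mt-Co1, which holds the site where oxygen is reduced, was the most abundant message of the set in CPM. It had 26105, 24095 and 29330 CPM in IRF3-2D libraries, against 40202, 40412 and 40464 CPM in Ctrl libraries, a log2 fold change of -0.61 (SE 0.09, edgeR adjusted p = 0.0036). The Ctrl libraries were nearly equal, and IRF3-2D replicate 3 was the highest of its group. mt-Co2, which takes up electrons from cytochrome c, had 5632, 5478 and 7046 CPM in IRF3-2D libraries, against 10647, 11358 and 11002 CPM in Ctrl libraries (log2 fold change -0.86). mt-Co3 had a log2 fold change of -1.13, so the members of this complex fell by unlike amounts.

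The complex V genes mt-Atp8 and mt-Atp6, whose products form part of the membrane sector of ATP synthase, are carried on a shared message. Their reading frames overlap by 43 bases at chrM:7927-7969 (GRCm38, plus strand), shown here because reads of this stretch belong to both genes. Capitals mark the start codon of mt-Atp6 and the stop codon of mt-Atp8.
mt-Atp8 and mt-Atp6 overlap: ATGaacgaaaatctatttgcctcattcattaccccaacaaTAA

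mt-Atp8 had 2927, 2772 and 2699 CPM in IRF3-2D libraries, against 7227, 7541 and 6844 CPM in Ctrl libraries, a log2 fold change of -1.36 (SE 0.08, edgeR adjusted p = 8.56e-05). mt-Atp6 had 5645, 4982 and 6119 CPM in IRF3-2D libraries, against 10827, 11958 and 11685 CPM in Ctrl libraries, a log2 fold change of -1.04 (SE 0.10, edgeR adjusted p = 0.000594). The count ratio of mt-Atp8 to mt-Atp6 was 0.519, 0.556 and 0.441 in IRF3-2D libraries, against 0.667, 0.631 and 0.586 in Ctrl libraries. The groups of ratios did not overlap, though the genes share a message. In mt-Nd4l and mt-Nd4, which overlap by 7 bases, the count ratio was 0.172, 0.178 and 0.169 against 0.210, 0.219 and 0.218, again without overlap between groups.

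Parts of the mitochondrial genome have copies in nuclear chromosomes, and reads from these cannot be told apart from mitochondrial reads where the letters are equal. Of the 31-base words of mt-Co2, mt-Co3, mt-Atp6, mt-Nd4l and mt-Nd3, 98.1% to 100% also occur in transcripts of another gene in GENCODE M21, and 63.9% of those of mt-Co1 and 62.8% of those of mt-Nd4. The other 6 genes shared 16.8% or less, and mt-Nd1 none. These 6 include mt-Nd1 and mt-Cytb, the genes with the least and the greatest fall. They also include mt-Atp8, which shared 7.47% of its words, beside 99.5% for mt-Atp6. Whether this bears on the count ratio of that pair was not tested.

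Per length, mt-Atp8 was the highest of the set in Ctrl liver, with a mean of 35314 CPM per kb, followed by mt-Co1 with 26123, and mt-Nd3 was the lowest with 2927. In IRF3-2D liver mt-Co1 was the highest, with 17159 CPM per kb, followed by mt-Atp8 with 13721, and mt-Nd3 was again the lowest with 1357. On the message it shares with mt-Atp8, mt-Atp6 had 16872 CPM per kb in Ctrl and 8197 in IRF3-2D. The rank of mt-Atp8, a gene of 204 bases, is thus not firm on this scale. mt-Cytb and mt-Nd1 changed places. mt-Cytb had 3576, 3140 and 4189 CPM per kb in IRF3-2D libraries and mt-Nd1 6347, 5886 and 7092. In Ctrl libraries mt-Cytb had 10790, 11791 and 11276 CPM per kb and mt-Nd1 9126, 8727 and 9516. The count ratio of mt-Cytb to mt-Nd1, which no scaling between libraries can alter, was 0.674, 0.638 and 0.706 in IRF3-2D libraries, against 1.41, 1.62 and 1.42 in Ctrl libraries, 2.20-fold lower.

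The size of the fall followed the order of the genes along the mitochondrial genome in part. The 4 genes that start first, mt-Nd1, mt-Nd2, mt-Co1 and mt-Co2, had log2 fold changes of -0.50, -1.04, -0.61 and -0.86. Between them and the last 5, mt-Atp8, mt-Atp6, mt-Co3 and mt-Nd3 had -1.36, -1.04, -1.13 and -1.11. The last 5, mt-Nd4l, mt-Nd4, mt-Nd5, mt-Nd6 and mt-Cytb, had -1.57, -1.25, -1.34, -1.55 and -1.63. mt-Atp8 was out of this order, with a greater fall than mt-Nd4 and mt-Nd5. So were mt-Nd2, which fell more than mt-Co1 and mt-Co2 after it, and mt-Nd4l, which fell more than mt-Nd4, mt-Nd5 and mt-Nd6. Across the 13 genes Pearson's r between start position and log2 fold change was -0.85 and Spearman's rho was -0.85, and over the 12 genes on the heavy-strand transcript r was -0.83. The genes are not independent points, since they share libraries and precursor transcripts, and these values are a description. Each IRF3-2D library set against the Ctrl mean gave this slope, with r of -0.84, -0.86 and -0.81. Ctrl libraries set against the mean of the other 2 had r of -0.44, 0.59 and 0.09. Across the 13 genes, the log2 fold change had an r of 0.24 with length, 0.29 with level per length in Ctrl and 0.14 with the share of words found in other genes.

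**Figure D2:**
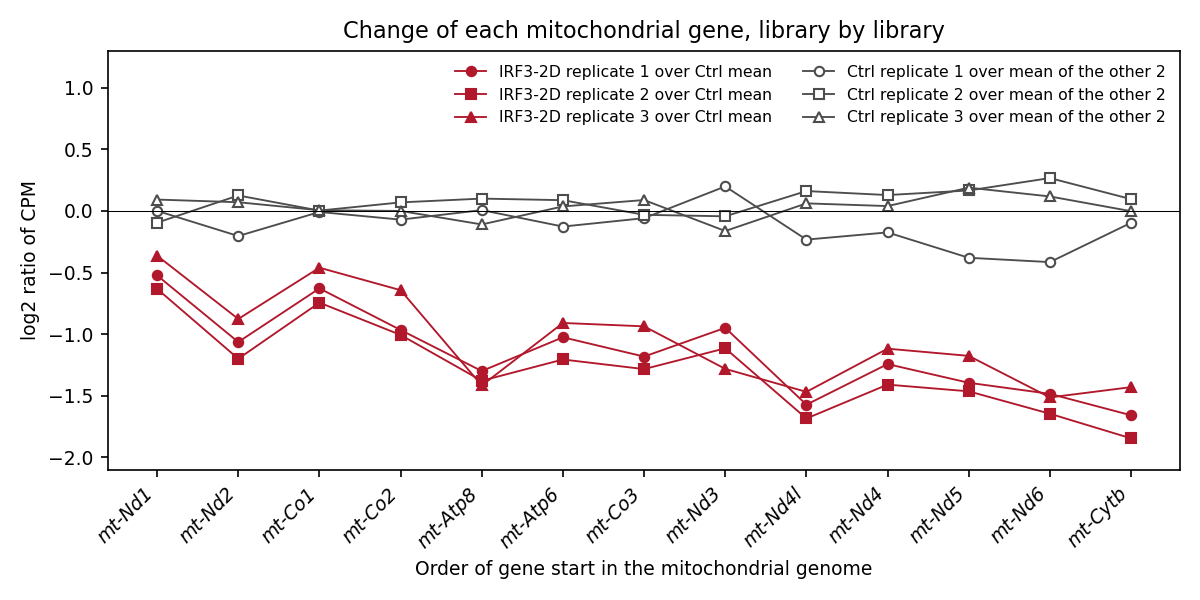
Log2 ratio of CPM for the 13 mitochondrial genes in the order of their start. Red lines are each IRF3-2D library over the Ctrl mean and run from between -0.36 and -0.63 at mt-Nd1 to between -1.43 and -1.85 at mt-Cytb; grey lines are each Ctrl library over the mean of the other 2 and stay within -0.42 and 0.27.

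Among the nuclear genes, 71 of 84 had enough counts to be tested. Of these 14 fell, 19.7% beside 13.1% of all genes tested, and none rose with TMM scaling, while with library totals alone none fell and 35 rose, beside 41.7% of all genes tested that rose there. Ndufa12 and Atp5a1 were higher at an unadjusted p under 0.05 by edgeR, and DESeq2 and limma-voom called 0 higher too; with library totals alone 0 were lower at an unadjusted p under 0.05. The median log2 fold change of the 71 was -0.18, from -1.31 for Cox4i1 to 0.73 for Atp5a1, and 57 of the 71 values were negative. In 31 (43.7%) every IRF3-2D library was below every Ctrl library, beside 21.2% of all genes tested, and in Ndufa12 alone every IRF3-2D library was above, beside 23.7% of all genes tested. With library totals alone the median of all genes tested moved to 0.49. Relative to the median of all genes, nuclear subunits then stood at -0.22 and mitochondrially encoded ones at -1.17, and with TMM they stood at -0.22 and -1.16. With library totals 11 mitochondrially encoded genes kept their calls, beside 5.29% of all genes tested that were lower, and mt-Nd1 (-0.05) and mt-Co1 (-0.16) lost theirs. With each library scaled to the sum of its nuclear subunit counts, all 13 kept their calls, at log2 fold changes of -0.33 to -1.47, beside 8.38% of all genes tested that were lower. The 14 nuclear calls became 7 without Ctrl replicate 1, 9 without Ctrl replicate 2, 3 without Ctrl replicate 3, 2 without IRF3-2D replicate 1 and 2 without IRF3-2D replicate 2. Ndufs1 and Cox7c alone kept their calls in all 6 fits that leave out a library, and the counts by complex below share this limit.

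**Figure D3:**
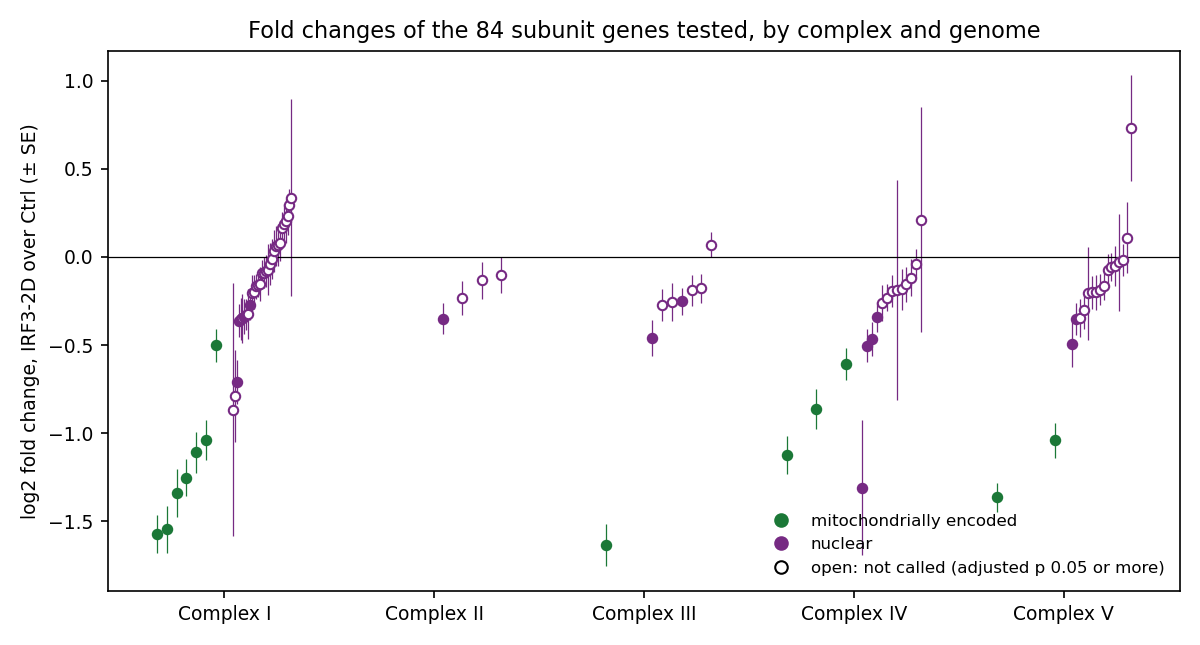
Log2 fold change of IRF3-2D over Ctrl (TMM scaling, ± SE) for the 84 subunit genes tested, with mitochondrially encoded genes in green and nuclear genes in purple, by complex. Filled points were called; all 13 green points are filled and lie at -0.50 or below, while 14 of 71 purple points are filled, all below 0, and with library totals alone none of these is called.

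Nuclear subunits of complex I fell in 5 of 31 tested genes, 16.1% beside 13.1% of all genes tested, with a median log2 fold change of -0.09. Ndufs1, the largest iron-sulphur subunit of the NADH-oxidising module, had 57.2, 55.3 and 57.3 CPM in IRF3-2D libraries, against 106, 75.9 and 95.6 CPM in Ctrl libraries. It was 1.63-fold lower, with a log2 fold change of -0.71 (SE 0.12, edgeR adjusted p = 0.00664), and the IRF3-2D libraries were nearly equal while Ctrl libraries varied. The other 4 were accessory subunits, Ndufb3 (-0.36), Ndufa10 (-0.34), Ndufa7 (-0.33) and Ndufb11 (-0.28), with edgeR adjusted p-values of 0.0292 to 0.0452. Ndufa12, an accessory subunit that joins the complex late, averaged 56.3 ± 5.20 CPM in IRF3-2D and 45.9 ± 1.41 CPM in Ctrl (SD, n = 3 each), with an edgeR adjusted p of 0.0521. Ndufa9, which had the highest mean CPM over the 6 libraries among nuclear subunits of complex I, though Ndufa10 was higher in Ctrl, averaged 148 ± 12.3 CPM in IRF3-2D and 170 ± 9.93 CPM in Ctrl (adjusted p = 0.17). By module, 2 of 9 tested genes of the NADH module fell (22.2%, beside the same 13.1%), with a median log2 fold change of 0.07. Of the ubiquinone module 0 of 5 fell (median -0.15), and of the nuclear membrane arm 3 of 17 (17.6%, median -0.16). The 7 mitochondrially encoded partners of the membrane arm had a median of -1.25. In the ubiquinone module 1 gene was lower at an unadjusted p under 0.05 by edgeR, and DESeq2 called 1 and limma-voom 0. Of the catalytic core, 1 of 6 tested nuclear genes fell (16.7%), and of the accessory subunits 4 of 25 (16%), beside 13.1% of all genes tested.

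Complex II, which has no mitochondrially encoded subunit, had 1 gene of 4 called lower, 25% beside 13.1% of all genes tested. Its median log2 fold change was -0.18. Sdhd, a membrane anchor, had 198, 205 and 210 CPM in IRF3-2D libraries, against 275, 239 and 267 CPM in Ctrl libraries (log2 fold change -0.35, SE 0.09, edgeR adjusted p = 0.025). Sdha, the flavoprotein that oxidises succinate, had 723, 697 and 842 CPM in IRF3-2D libraries, against 857, 900 and 899 CPM in Ctrl libraries. Its groups did not overlap, but its edgeR adjusted p was 0.127. Sdhb and Sdhc had log2 fold changes of -0.13 and -0.10, with overlapping groups.

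In complex III, 2 of 7 tested nuclear genes fell, 28.6% beside 13.1% of all genes tested, and the median log2 fold change was -0.25. Uqcr11, a small subunit, had 73.2, 64.6 and 82.9 CPM in IRF3-2D libraries, against 103, 98.6 and 101 CPM in Ctrl libraries (log2 fold change -0.46, SE 0.10, edgeR adjusted p = 0.0176), and Uqcrb, which lies beside cytochrome b, had a log2 fold change of -0.25 (adjusted p = 0.0485). Uqcrc2, a core protein and the most abundant nuclear subunit of the complex in CPM, averaged 273 ± 23.5 CPM in IRF3-2D and 330 ± 6.59 CPM in Ctrl (SD, n = 3 each), with an edgeR adjusted p of 0.0638. Cyc1, which the symbol rule left out, averaged 121 ± 16.5 CPM in IRF3-2D and 173 ± 9.20 CPM in Ctrl, and it fell (log2 fold change -0.52, edgeR adjusted p = 0.0163), a call that was lost without Ctrl replicate 3, IRF3-2D replicate 1 or IRF3-2D replicate 2. mt-Cytb, at -1.63, stood well below all 7 nuclear subunits, of which the lowest was at -0.46.

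In complex IV, 4 of 13 tested nuclear genes fell, 30.8% beside 13.1% of all genes tested, and the median log2 fold change was -0.19. Cox7c, a small subunit at the rim of the catalytic core, had 162, 141 and 164 CPM in IRF3-2D libraries, against 214, 212 and 235 CPM in Ctrl libraries (log2 fold change -0.50, SE 0.10, edgeR adjusted p = 0.00878). Cox7a2 had 77.6, 78.9 and 94.2 CPM in IRF3-2D libraries, against 115, 111 and 120 CPM in Ctrl libraries (log2 fold change -0.47), and Cox6a1 had a log2 fold change of -0.34. In all 3 the groups were apart, by less than those of mt-Co2 and mt-Co3. Cox4i1, an early assembly partner of mt-Co1, was called at 2.48-fold lower from 29 to 60 counts in IRF3-2D libraries and 54 to 112 counts in Ctrl libraries, too few for a firm value. Ndufa4 had 272, 263 and 298 CPM in IRF3-2D libraries, against 288, 277 and 290 CPM in Ctrl libraries, with overlapping groups.

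On the scale of level per length, Cox6a1, Cox7a2 and Cox8a kept the liver pattern of isoforms in both groups. Cox6a1 averaged 277 CPM per kb in IRF3-2D and 351 in Ctrl, beside 0.0966 and 0.0412 for Cox6a2, the heart and muscle form. Cox7a2 averaged 127 CPM per kb in IRF3-2D and 175 in Ctrl, beside 1.55 and 1.77 for the muscle form Cox7a1. Cox8a averaged 223 CPM per kb in IRF3-2D and 268 in Ctrl, while Cox8b was below 1 CPM and Cox8c was at 0 in all 6 libraries. Cox4i1 averaged only 3.99 CPM per kb in IRF3-2D and 9.92 in Ctrl, and Cox4i2 was at 0 in all 6 libraries. No isoform pattern can be read from this pair. With a limit of 3 counts, a gene at 0 could still have had 0.202 CPM in the deepest library and 0.249 CPM in the shallowest, which covers counting error only.

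In complex V, 2 of 16 tested nuclear genes fell, 12.5% beside 13.1% of all genes tested, and the median log2 fold change was -0.18. Atp5c1, the gamma subunit that turns within the catalytic head, had 240, 229 and 259 CPM in IRF3-2D libraries, against 332, 295 and 305 CPM in Ctrl libraries (log2 fold change -0.35, SE 0.09, edgeR adjusted p = 0.0275). Atp5b, the catalytic beta subunit, was the most abundant nuclear gene of the set in CPM, with 1461, 1451 and 1606 CPM in IRF3-2D libraries against 1563, 1540 and 1593 CPM in Ctrl libraries, and its groups overlapped. Atp5g1, Atp5g2 and Atp5g3 code for the same mature ring subunit. Atp5g3 held most of it on the scale of level per length, with 436 CPM per kb in IRF3-2D and 501 in Ctrl (adjusted p = 0.186). Atp5g1 averaged 38.2 CPM per kb in IRF3-2D and 53.8 in Ctrl, and it was the called member (log2 fold change -0.49, edgeR adjusted p = 0.0308). Atp5g2 averaged 12.3 CPM per kb in IRF3-2D and 12.6 in Ctrl. The nuclear partners of mt-Atp6 and mt-Atp8 thus had values between -0.49 and 0.73, while these genes were at -1.04 and -1.36.

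Within each library, counts of mitochondrially encoded subunits were set over counts of nuclear subunits, a ratio that scaling between libraries cannot alter. Over all complexes it was 7.82, 7.52 and 7.92 in IRF3-2D libraries, against 12.8, 14.1 and 13.3 in Ctrl libraries, 1.73-fold lower. In complex I it averaged 10.0 ± 0.149 in IRF3-2D and 19.4 ± 1.51 in Ctrl, in complex III 3.89 ± 0.290 and 10.3 ± 0.628, in complex IV 25.6 ± 0.862 and 36.2 ± 1.31, and in complex V 2.61 ± 0.103 and 5.34 ± 0.387 (SD, n = 3 each). The ratio was 1.93-fold, 2.66-fold, 1.41-fold and 2.04-fold lower in these 4 complexes, without overlap between groups in any. Counts were summed, so abundant genes weigh most, and complex III rests on mt-Cytb alone. Of the mitochondrial counts of complex IV, mt-Co1 held 403567 of 567323 in IRF3-2D replicate 1 and 492132 of 756530 in Ctrl replicate 1. With the 6 mitochondrial genes that share at most 50% of their words, the ratio over all complexes was 2.48, 2.38 and 2.48 in IRF3-2D libraries, against 4.58, 5.29 and 4.93 in Ctrl libraries, 2.01-fold lower. The mitochondrially encoded genes held 8.26% ± 0.481 of all counts in IRF3-2D and 11.7% ± 0.281 in Ctrl, while the nuclear ones held 1.06% ± 0.0399 and 0.875% ± 0.0499 (SD, n = 3 each), so the nuclear share was the larger one in IRF3-2D.

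**Figure D4:**
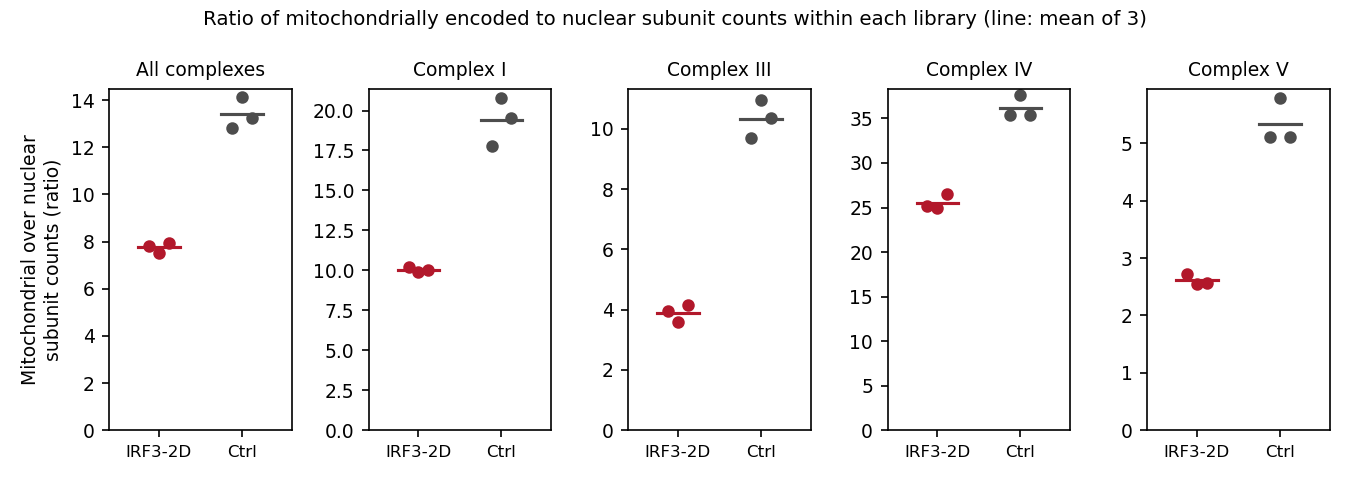
Ratio of mitochondrially encoded to nuclear subunit counts within each library, over all complexes and for the 4 complexes with subunits of both genomes, with 3 IRF3-2D libraries (red, left) and 3 Ctrl libraries (grey, right) and lines at the means. In every panel all red points lie below all grey points, by 1.41-fold in complex IV and by 2.66-fold in complex III.

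A total of 13 nuclear genes could not be tested for want of counts. Cox4i2, Cox7b2, Cox8c and Atp5k were at 0 in all libraries, and the others, among them Uqcrc1 (0 to 9 counts), had few. Uqcrc1 codes for a core protein that complex III needs. Cox6c, with 4 to 14 counts, and Ndufv1, with 6 to 43, are likewise needed subunits, and Cox4i1 was low as well, with 29 to 112. Low values of such genes may cover only part of their transcripts, and no level of the complex can be read from them. Atp5a1, the alpha subunit that stands beside Atp5b in the catalytic head, likewise had 346, 238 and 327 counts in IRF3-2D libraries, against 143, 87 and 218 counts in Ctrl libraries (edgeR adjusted p = 0.119), far below Atp5b. The same limit holds for the pathway lists below, where Mdh2, Ppargc1b, Phb2, Uqcc2 and Cox19 were at 0 in all libraries.

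The promoters of nuclear respiratory genes are known to hold sites of NRF1, of ETS factors such as GABPA, of ERRalpha and of YY1. RefSeq windows (GRCm38.p6) of 250 bases before to 50 after the start were found for 68 of the 84 nuclear genes, 73 windows in all. On either strand, the palindromic NRF1 consensus stood in 6.85% of these windows and in 0.971% of the windows of all 27025 genes, and a looser form with any bases at its centre, which includes the consensus, in 26.0% and 6.23%. The ETS letters CCGGAAG stood in 21.9% and 8.86%, the ERRalpha letters TCAAGGTCA in 2.74% and 0.423%, and the YY1 letters AANATGGCG in 13.7% and 2.38%. Some shares rest on few windows of subunit genes, 5 for the NRF1 consensus and 2 for ERRalpha. The windows of all genes were not limited to genes expressed in liver, so a share among expressed genes is not given. Among the 13 windows of called genes, 3 held the looser NRF1 form and 3 CCGGAAG, against 13 and 12 of the 52 windows of genes tested and not called.

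3 windows are printed, chosen after their letters were seen, as examples of this layout: those of Cox6a1 and Sdhd, which fell, and of Ndufa11, a membrane arm subunit that was not called (log2 fold change 0.17, edgeR adjusted p = 0.229). Capitals mark matches to the looser NRF1 form (10 bases), CCGGAAG or TCAAGGTCA on either strand, and each line reads along the strand of the gene. Cox6a1 (chr5:115348909-115349208, minus strand) holds the full and a looser NRF1 match and an ETS match, Sdhd (chr9:50603800-50604099, minus strand) a looser NRF1, an ETS and an ERRalpha match, and Ndufa11 (chr17:56717512-56717811, plus strand) a full NRF1 match.
Cox6a1: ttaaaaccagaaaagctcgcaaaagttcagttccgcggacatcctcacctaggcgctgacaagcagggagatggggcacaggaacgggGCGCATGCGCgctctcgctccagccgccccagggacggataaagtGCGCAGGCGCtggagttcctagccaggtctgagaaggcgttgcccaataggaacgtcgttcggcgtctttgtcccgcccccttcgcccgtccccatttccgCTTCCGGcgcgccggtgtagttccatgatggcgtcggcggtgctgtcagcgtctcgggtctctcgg
Sdhd: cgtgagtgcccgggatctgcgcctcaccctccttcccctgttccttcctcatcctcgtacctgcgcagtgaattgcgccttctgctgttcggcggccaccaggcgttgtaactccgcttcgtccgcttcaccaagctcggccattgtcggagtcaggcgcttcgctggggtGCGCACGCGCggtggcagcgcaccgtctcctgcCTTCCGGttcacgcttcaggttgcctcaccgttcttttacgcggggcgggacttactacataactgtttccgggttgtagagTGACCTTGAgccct
Ndufa11: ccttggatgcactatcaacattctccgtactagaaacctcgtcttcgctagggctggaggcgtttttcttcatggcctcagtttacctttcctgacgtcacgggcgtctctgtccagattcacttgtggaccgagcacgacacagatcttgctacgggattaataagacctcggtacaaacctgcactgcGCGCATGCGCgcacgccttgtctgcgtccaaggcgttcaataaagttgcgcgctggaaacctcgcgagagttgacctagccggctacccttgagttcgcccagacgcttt

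The matches are descriptions of these letters and say nothing of binding. Of the factors themselves, 11 of 16 listed regulators of respiratory genes were tested, 1 rose and 2 fell. That was 18.2% lower, beside 13.1% of all genes tested. Ppargc1a, a coactivator that drives mitochondrial biogenesis and fasting genes, averaged 95.8 ± 4.42 CPM in IRF3-2D and 43.2 ± 7.16 CPM in Ctrl (SD, n = 3 each), and its log2 fold change was 1.15 (SE 0.13, edgeR adjusted p = 0.00105). Ppara, the nuclear receptor of fatty acid oxidation, averaged 51.8 ± 5.01 CPM in IRF3-2D and 136 ± 8.58 CPM in Ctrl, a log2 fold change of -1.39 (adjusted p = 0.000169). Gabpa, the ETS factor named above, averaged 60.2 ± 4.19 CPM in IRF3-2D and 85.8 ± 3.60 CPM in Ctrl, a log2 fold change of -0.51 (adjusted p = 0.00467). The 3 calls held without each library in turn, and with library totals alone Gabpa, at -0.06, lost its call. Nrf1 had a log2 fold change of 0.37 (adjusted p = 0.165).

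Of 17 tested genes of mitochondrial DNA replication and transcription, 1 was called, beside 26.3% of all genes tested, with a list median of 0.00. This was Tfb2m, a transcription initiation factor, with 40.8 ± 0.851 CPM in IRF3-2D and 54.7 ± 7.27 CPM in Ctrl (SD, n = 3 each, log2 fold change -0.42, edgeR adjusted p = 0.0284), and of the 6 fits that leave out a library its call held in 1. Tfam, which packs mitochondrial DNA, had a log2 fold change of 0.02 (SE 0.20) and Tefm, the elongation factor, 0.21 (SE 0.14). Of 23 tested genes of mitochondrial RNA processing and turnover, 1 was called, beside the same 26.3%, with a median of -0.11. Lrpprc, which binds and stabilises mitochondrial messages, averaged 192 ± 14.8 CPM in IRF3-2D and 267 ± 16.9 CPM in Ctrl, a log2 fold change of -0.48 (SE 0.10, edgeR adjusted p = 0.0106). It kept its call without each library in turn and lost it with library totals alone, at -0.02. Mitochondrial ribosomal proteins had 4 genes higher and 5 lower of 71 tested, 7.04% lower beside 13.1% of all genes tested (and 13.2% of all genes higher), with a median of -0.02. Of these, Mrps2 (0.46), Mrpl35 (0.51) and Mrpl28 (-0.41) kept their calls without each library in turn, and with library totals alone Mrpl28 turned to 0.04. Mrpl30 had a log2 fold change of -0.66 and lost its call without Ctrl replicate 3 or IRF3-2D replicate 1.

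Assembly factors of the complexes had 2 genes higher and 5 lower of 41 tested, 12.2% lower beside 13.1% of all genes tested, with a median log2 fold change of 0.13. Cox17, the copper chaperone of complex IV, had the greatest rise: it had 90.0, 76.2 and 85.9 CPM in IRF3-2D libraries, against 23.9, 24.0 and 26.0 CPM in Ctrl libraries, and a log2 fold change of 1.77 (SE 0.09, edgeR adjusted p = 4.96e-05). Cox15, which helps to make haem A for the same complex, averaged 65.6 ± 3.14 CPM in IRF3-2D and 42.7 ± 0.475 CPM in Ctrl (log2 fold change 0.62, adjusted p = 0.00132). Sco2, which delivers copper to mt-Co2, fell (log2 fold change -0.73, adjusted p = 0.0139). These 3 kept their calls without each library in turn, and Sco2 lost its own with library totals alone. Taco1, the translational activator of mt-Co1, had a log2 fold change of -0.36 (adjusted p = 0.0241), a call that held in 1 of 6 such fits. Of 22 tested mobile carriers and partners of the chain, 2 rose and 3 fell, 13.6% lower beside 13.1% of all genes tested, with a median of -0.17. Atpif1, the inhibitor of ATP synthase, rose (0.71, adjusted p = 0.0171), as did Hccs, which attaches haem to cytochrome c (0.43), while Cyc1, Etfa (-0.38), an electron carrier of fatty acid oxidation, and Gpd2 fell. None of these 5 calls held in all 6 fits that leave out a library. Cycs, cytochrome c, had 117, 114 and 125 CPM in IRF3-2D libraries, against 128, 108 and 111 CPM in Ctrl libraries, with overlapping groups.

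**Figure D5:**
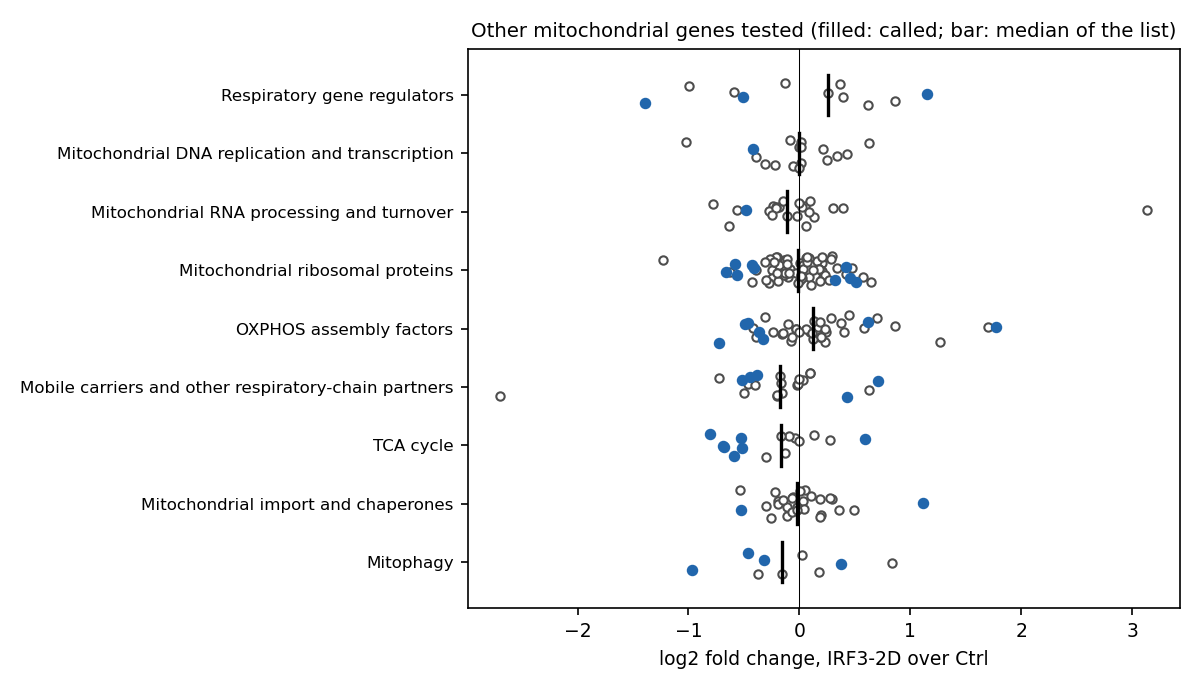
Log2 fold change of IRF3-2D over Ctrl (TMM scaling) for tested genes of 9 lists of mitochondrial function, 1 point a gene, filled where called, with a bar at each list's median. The medians lie between -0.17 and 0.25; the rightmost filled point is Cox17 at 1.77 and the leftmost is Ppara at -1.39.

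The TCA cycle, which feeds NADH and succinate to the chain, had 6 genes lower and 1 higher of 15 tested (40.0% lower, beside 13.1% of all genes), with a median log2 fold change of -0.16. Mdh2 of this list was at 0 in all libraries, a value that may cover only part of its transcripts. With library totals alone Pdha1 was the only one of the 6 lower calls that held, and in fits that leave out a library Ogdh lost its call in 5 of 6, Pcx in 3 (without Ctrl replicate 3, IRF3-2D replicate 1 or IRF3-2D replicate 2) and Sucla2 in 2 (without IRF3-2D replicate 1 or 2). Pdha1, a subunit of the pyruvate dehydrogenase complex that feeds the cycle, averaged 140 ± 7.97 CPM in IRF3-2D and 245 ± 16.3 CPM in Ctrl (SD, n = 3 each, log2 fold change -0.81, edgeR adjusted p = 0.00103). The succinyl-CoA ligase genes Suclg1 (-0.69) and Suclg2 (-0.59) fell too. Cs, citrate synthase, went the other way, with 307 ± 17.1 CPM in IRF3-2D and 203 ± 10.7 CPM in Ctrl (log2 fold change 0.59, adjusted p = 0.00309). These 4 kept their calls without each library in turn, while with library totals alone Suclg1 and Suclg2 lost theirs, at -0.24 and -0.14. Of 28 tested genes of mitochondrial import and chaperones, 2 were called, beside 26.3% of all genes tested. Clpx, the unfoldase of a matrix protease, rose (52.6 ± 2.83 CPM in IRF3-2D and 24.3 ± 3.88 CPM in Ctrl, log2 fold change 1.11, adjusted p = 0.00112) and Spg7 fell (-0.53). The call of Spg7 was lost in 4 of 6 such fits, those without Ctrl replicate 2, Ctrl replicate 3, IRF3-2D replicate 1 and IRF3-2D replicate 2. Of 9 tested mitophagy genes, 1 rose and 3 fell, 33.3% lower beside 13.1% of all genes tested. Bnip3, a mitophagy receptor, averaged 122 ± 4.75 CPM in IRF3-2D and 239 ± 26.4 CPM in Ctrl (log2 fold change -0.97, adjusted p = 0.000824), a call that held in every fit that leaves out a library. Bnip3l (-0.46) lost its call without IRF3-2D replicate 2, Optn (0.38) without IRF3-2D replicate 1, and Fkbp8 (-0.32) in the same 4 fits as Spg7.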

How the data were processed

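RNA of 6 mouse liver samples was measured, 3 of the IRF3-2D group and 3 of the Ctrl group, by sequencing of poly-A selected, strand-specific libraries, per the labels' protocols. The deposited values are estimated counts per gene, not normalized. Per the submitters' processing notes, Salmon 1.2.1 was among the tools and GRCm38 (mm10) the build; the annotation, how transcripts were summed and the strand setting are not given in the sources. All deposited values were whole numbers, so they were taken as rounded estimated counts and used as they stand. Of 20894 rows, 20817 matched a symbol in GENCODE M21; rows without a symbol held 0.0139% to 0.0220% of a library's counts and stayed in the fit.

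The default filterByExpr of edgeR 4.0.16 under R 4.3.3 chose the genes to test, and IRF3-2D was compared with Ctrl over 10802 genes by the quasi-likelihood F-test with TMM scaling, the group as the only term and Benjamini-Hochberg adjustment. The script was tested on simulated data. SEs of log2 fold changes come from the fold change and its F statistic. Levels per length divide CPM by the median length of a gene's protein-coding transcripts, a choice that does not arise for the 26 subunit genes with 1 annotated transcript. Shared words are the 31-base words of a gene's transcripts that also occur in those of another gene. The subunit genes, the pathway lists and the marker lists were chosen with earlier results of these data known, and no list was tested as a set. Genes were named by a rule: Irf3, all mitochondrially encoded subunits, all called nuclear subunits, in each complex the most abundant nuclear subunit and that with the smallest p, isoform pairs, and up to 4 called genes of each list. Ndufa12, Ndufa11, Sdhb, Sdhc, Cyc1, Nrf1, Tfam, Tefm, Cycs, Gpd2, Spg7 and the genes near 0 were named after their values were seen, where the rule did not name them.

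Alternatives were DESeq2 1.42.0, limma-voom (limma 3.58.1), RLE and upper-quartile factors, library totals alone, TMM without mitochondrial genes, scaling to the summed nuclear subunits, no filter, a mean count of at least 50, each library left out in turn and a replicate block. Replicates of a group differed beyond sampling noise, with a chi-square per degree of freedom of 15.9 to 90.1, so none was counted as a repeat.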

Additional observations from a re-analysis of the deposited data

How the results depend on the processing

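The calls of all 13 mitochondrially encoded genes held under each alternative except library totals alone, where 11 held, and the fit without IRF3-2D replicate 1, where 12 held. Their median log2 fold change became -0.68 with library totals alone and -0.96 with scaling to the sum of nuclear members. The nuclear subunits depended on the scaling: their median became 0.26 with library totals alone and -0.014 with scaling to their own sum, which moved the median of all genes tested to 0.21. Nuclear genes called lower numbered 0 and 4 under these scalings, and those called higher 35 and 6. Without a filter 9 were lower, with the replicate block 7, and with a mean count of at least 50 there were 18 lower and 1 higher; DESeq2 called 20 lower. Leaving out 1 library gave 2 to 15 lower and 0 to 1 higher. Of all genes tested, library totals alone called 571 lower and 4500 higher, and scaling to nuclear members 905 lower. Leaving out 1 library gave 931 to 1371 lower and 854 to 1330 higher. The log2 ratio of mitochondrial to nuclear counts was -0.79, and -1.01 with the 6 genes of few shared words. The cause of these shifts was not tested.

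With library totals alone 35 of the 71 tested nuclear subunits were called higher, Sdhb (0.32) and Sdhc (0.35) among them, and 8 of the 71 values were negative. The turns listed from here on are only those of subunit and pathway genes named by the rule, not of all genes. Among these, the log2 fold changes of Atp5b (0.40), Cox6b1 (0.29), Ndufa4 (0.41) and Ndufa9 (0.25) turned positive and were called. Those of Atp5c1 (0.10), Atp5g2 (0.42), Atp5g3 (0.25), Cox6a1 (0.11), Cox7a1 (0.24), Cox7a2l (0.22), Cox8a (0.19), Ndufa7 (0.12), Ndufa10 (0.11), Ndufb3 (0.086), Ndufb11 (0.18), Sdha (0.22), Sdhd (0.10), Uqcrb (0.20), Uqcrc2 (0.18), Etfa (0.068), Fkbp8 (0.13), Mrpl28 (0.044), Taco1 (0.091) and Tfb2m (0.036) turned positive and were not called. With scaling to the sum of nuclear members Atp5b turned to 0.11, Atp5g2 to 0.15, Cox6b1 to 0.015 and Ndufa4 to 0.13. Leaving out 1 library gave -0.31 to 0.15 for Atp5g2, -0.74 to 0.14 for Cox7a1 and -0.10 to 0.0020 for Ndufa4, which were not called.

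Replicate numbers did not pair the samples: same-numbered samples deviated together with r of 0.10, -0.03 and 0.04 across genes, and not every sample correlated best with its own number. Of 288 counts by complex under the alternatives, 237 stayed within 1.5 times the value reported and 51 moved, none of them mitochondrial. This limit cannot register the lost calls of mt-Nd1, among 7 genes of complex I, and mt-Co1, among 3 of complex IV. The 288 also include counts called higher, which were 0 for mitochondrially encoded genes in every fit. Depth limits the genes near 0, for which no change smaller than their spread can be seen.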

Other observations

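The remaining marker lists were tested in the same fit. Stellate cell markers had 1 of 13 tested genes lower, beside 13.1% of all genes tested. This was Reln, which lost its call with library totals alone (log2 fold change -0.27), with summed levels of 283 to 382 CPM in IRF3-2D and 330 to 412 CPM in Ctrl, and Pdgfrb at 0. Cholangiocyte markers had 0 of 6 called by edgeR, with 1 higher and 1 lower at an unadjusted p under 0.05 and 1 called higher by DESeq2, at 32.1 to 41.1 CPM in IRF3-2D and 32.1 to 52.1 CPM in Ctrl. T, NK and B cell markers had 0 of 6 called by edgeR, DESeq2 or limma-voom, 0 also at an unadjusted p under 0.05, at 10.2 to 12.3 CPM in IRF3-2D and 6.90 to 11.6 CPM in Ctrl, with Cd3g at 0. Neutrophil and monocyte markers had 1 of 6 higher, the monocyte gene Ly6c2, beside 13.2% of all genes tested that were higher. Their summed levels were 6.88 to 30.1 CPM in IRF3-2D and 4.63 to 8.33 CPM in Ctrl, with Mpo at 0. Erythroid markers likewise had 0 of 5 called by the 3 tools, 0 also unadjusted, at 649 to 1265 CPM in IRF3-2D and 747 to 1473 CPM in Ctrl. Of muscle and brown fat markers 2 were tested and Elovl3, a fatty acid elongase that liver also expresses, fell, with summed levels of 26.7 to 48.3 CPM in IRF3-2D and 159 to 287 CPM in Ctrl and Myh7 at 0. In the macrophage list, Mpeg1 averaged 518 ± 68.3 CPM in IRF3-2D and 125 ± 32.6 CPM in Ctrl (SD, n = 3 each, edgeR adjusted p = 0.000595), so it held a large part of that list's sum.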
